A study of Homo sapiens with 9 samples.

Results

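Concave bending of a culture plate was compared with a flat plate in early neuroepithelium made from human embryonic stem cells. The comparison takes every RNA-seq library labelled concave and every library labelled control, which is 3 against 3, or 6 of the 9 libraries in the series; the other 3 were grown under convex bending and are used only as a second curvature. All 9 are from H9, an established wild-type human embryonic stem cell line. Cells were plated on Matrigel-coated polydimethylsiloxane, an elastic silicone, and kept for 72 hours in mTeSR1, a pluripotency medium. They then spent 48 hours in N2B27 with SB431542 and LDN, which block the Activin/Nodal/TGF-beta and the BMP receptors and so push pluripotent cells towards neural ectoderm (dual SMAD inhibition). In the last 24 hours the inhibitors stayed in every dish, and the plate was bent to a concave or convex shape or left flat. Both groups are therefore the same line under the same inhibitors, and no group was sampled before bending. Libraries carry replicate numbers 1 to 3, but nothing in the labels ties the libraries of a group to separate cultures; p-values then measure only how far these libraries spread, and that spread may be technical. They also do not say that a number marks a shared culture or day: below, "pair 1" means only concave 1 minus flat 1, on the log2 scale of CPM, the read count scaled to the size of its library.

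Bending of a neural epithelium is what happens when the neural plate folds into a tube. Apical constriction, in which actin and myosin narrow the free surface of each cell, and planar cell polarity, which orients cells within the sheet, take part in that folding. Curvature and stretch can also be read by cells through focal adhesions, ion channels such as PIEZO1, and the transcriptional partners YAP and TEAD. Genes of these machineries are therefore described below together with genes of cell identity, growth, energy supply and stress.

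The labels name early neuroepithelium, and its markers were present at unequal levels. SOX2, a transcription factor of pluripotent and neural cells, stood at 512 to 822 CPM over the 6 libraries, and OTX2, a factor of the anterior neural plate, at 257 to 318 CPM. SIX3, a forebrain factor, ranged from 36.7 to 185 CPM. SOX1 and PAX6, which mark a more advanced human neural plate, were low, at 1.47 to 4.91 CPM and 1.10 to 6.44 CPM. Of the pluripotency markers, NANOG was at most 0.31 CPM whereas POU5F1 was still at 206 CPM or more. DPPA4 was at 229 to 487 CPM and L1TD1 at 131 to 515 CPM. The 4 mesoderm and endoderm markers summed to 0.716 to 2.04 CPM, with SOX17 at 0 in each library, and TFAP2A, DLX5, GATA6 and PTPRC (non-neural ectoderm, endoderm and blood) were at or near 0. KRT18, a keratin listed with the non-neural ectoderm markers, was at 59.5 to 172 CPM. COL1A1, a fibroblast collagen, was at 462 to 1134 CPM. The neuron markers DCX, STMN2 and ELAVL3 were at 12.4 to 32.5, 4.18 to 25.85 and 2.88 to 10.75 CPM. Of the neural crest markers, SOX10 was at 6.56 to 14.03 CPM, PAX3 at 0.674 to 1.46 CPM and FOXD3 at 0.497 CPM or less. In bulk RNA, fewer cells of a type and less RNA per cell cannot be told apart.

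The libraries held 49420082 to 64763412 counts, and 23075 of 62710 genes had enough counts to be tested. Features of 2 single libraries run through the results. Compared over genes with each of the other 5, flat 2 gave a chi-square per degree of freedom of 133.1 to 284.6. The pairs without flat 2 gave 36.5 (concave 3 and flat 3) to 158.5 (concave 1 and concave 3), so the ranges overlapped. Concave 1 was the highest library for 23 of 36 genes of glycolysis and the hypoxia response. Replicate number 3 also differed from the others in both groups in pluripotency genes: TDGF1, the NODAL co-receptor Cripto, was at 123 CPM in flat 3 and 163 CPM in concave 3 but at 1.11 to 4.26 CPM in numbers 1 and 2. Many list medians and named genes are therefore given with and without flat 2 or concave 1. A gene or list given without such a value may also depend on them.

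No gene passed the test. With edgeR's quasi-likelihood test and Benjamini-Hochberg adjustment over all tested genes, 0 of 23075 genes (0%) reached an adjusted p under 0.05, and the smallest adjusted p was 0.841. At an unadjusted p under 0.05, 456 genes were higher under concave bending (1.98%) and 591 lower (2.56%), 1047 in all. Scaling by library size alone turned that split to 553 higher and 369 lower. DESeq2 also called 0 genes, with 561 higher and 664 lower at an unadjusted p under 0.05, and limma voom called 0, with 582 and 348. The count at an unadjusted p under 0.05 was 338 higher and 50 lower without flat 2, 157 and 48 without concave 2, 360 and 324 without concave 1, 1045 and 1029 without concave 3, and 2085 and 2011 without flat 3, with 0 called in each. The common biological coefficient of variation was 0.329. Everything that follows describes differences that did not pass the test at this spread between libraries, and a value named higher or lower is so in these libraries only.

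Most genes did not keep 1 direction over the 3 replicate numbers. The 3 pairs gave the same sign for 2610 genes higher in all 3 (11.3%) and 2880 lower in all 3 (12.5%). An even split over all patterns of sign would place 12.5% of genes in each, so neither share was above that. The commonest patterns set pair 3 against pairs 1 and 2: 5434 genes (23.5%) were higher in pairs 1 and 2 and lower in pair 3, and 5065 (22%) were the reverse. Pair 2, which holds flat 2, had the largest differences, with a median absolute log2 difference of 0.606 against 0.287 in pair 1 and 0.222 in pair 3. A difference of at least 1 was seen for 6407 genes in pair 2, 1840 in pair 1 and 1768 in pair 3.

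**Figure D1:**
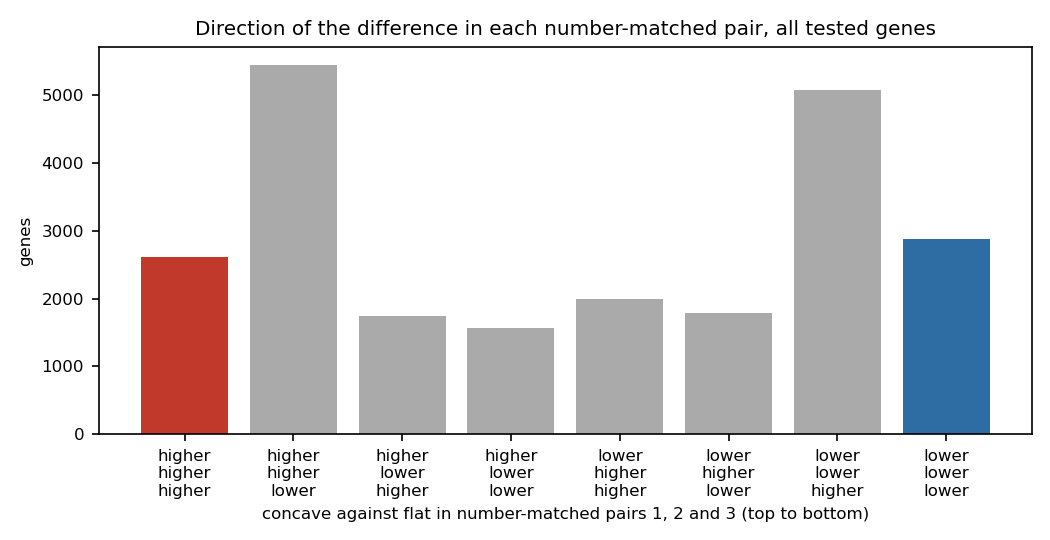
Number of tested genes (vertical axis) with each pattern of direction in the 3 number-matched pairs (horizontal axis, pairs 1, 2 and 3 from top to bottom of each label). The coloured bars are the 2610 genes higher and the 2880 genes lower in all 3 pairs, and the tallest bars are the 2 patterns in which pair 3 opposes pairs 1 and 2.

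Genes that kept a direction differed by level and by type, and types were not compared at matched levels. Among the 11962 genes averaging at least 5 CPM, 923 were higher in all 3 pairs (7.72%) and 1601 lower (13.4%), whereas among the 7030 genes under 1 CPM 1151 were higher (16.4%) and 741 lower (10.5%). Of 15523 protein-coding genes 1355 were higher (8.73%) and 2127 lower (13.7%), and of 4082 long non-coding RNA genes 716 were higher (17.5%) and 449 lower (11%). At the highest levels, 100 CPM or more, 122 of 2164 genes were higher (5.64%) and 276 lower (12.8%). The ranges of the 2 groups did not overlap for 872 genes with concave higher (3.78%) and 682 with concave lower (2.96%). With 3 against 3 libraries, an exact two-sided permutation test gives a non-overlap no less than p = 0.1. A gene said below to have no overlap is therefore not set apart by that alone.

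A size minimum left few genes. Of all tested genes, 653 were higher (2.83%) and 380 lower (1.65%) by at least 0.3 log2 in each pair, most of them at low levels. With an average of at least 5 CPM as well, 34 genes were higher (0.284%) and 31 lower (0.259%). The gene nearest inside this limit on the higher side was MIR17HG, with 0.31 in its smallest pair, and the nearest outside was ADAM33, with 0.30. On the lower side CALB2 was just inside, at -0.30, and SBK2 just outside. The 34 genes had a median fitted log2 fold change of 0.57, which was 0.51 without flat 2, 0.67 without concave 1 and 0.61 without both; the 31 had -0.66, then -0.51, -0.91 and -0.67. Their direction is fixed by the way they were chosen, and the same choice favours small p-values. An unadjusted p under 0.05 in edgeR's test was found for 13 of the 34 and 10 of the 31. Of all tested genes, 1.98% were higher and 2.56% lower at that threshold, so these counts are no separate evidence.

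**Figure D2:**
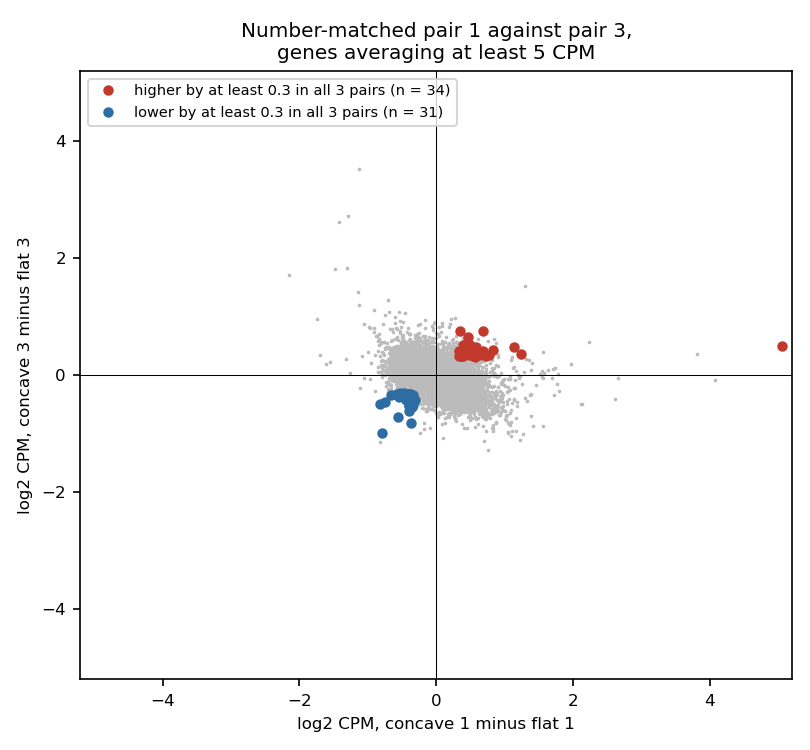
Each point is a gene averaging at least 5 CPM, placed by its log2 difference in pair 1 (horizontal axis) and in pair 3 (vertical axis); the 34 genes higher and 31 lower by at least 0.3 in all 3 pairs are coloured. The coloured genes lie close to the cloud of all genes, apart from ADM, at 5.05 in pair 1.

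Among genes with a symbol that averaged at least 5 CPM, DDX39B had the smallest unadjusted p (0.00315, edgeR). It encodes an RNA helicase (UAP56) that works in splicing and in export of mRNA from the nucleus, and lies on chromosome 6, 31530219 to 31542448 (GRCh38). Its level was 166, 119 and 175 CPM in flat 1, 2 and 3 and 223, 274 and 235 CPM in concave 1, 2 and 3. The groups did not overlap, and the means were 153 ± 30.1 and 244 ± 26.4 CPM (SD, n = 3 each). The fitted log2 fold change was 0.67 ± 0.17 (SE), with an adjusted p of 0.841 in edgeR's test, and 0.58 when flat 2 and concave 1 were left out. The gene shares exons with the readthrough ATP6V1G2-DDX39B and holds SNORD84, so its reads could be split between them.

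MRNIP and GOLGA8A were the next on that ranking. MRNIP, which encodes a partner of the MRN complex of DNA break repair, stood at 16.9, 14.2 and 18.5 CPM in the flat libraries and 24.4, 26.8 and 22.4 CPM in the concave ones. The groups were apart, with a fitted log2 fold change of 0.57 ± 0.17, but the gene overlaps TBC1D9B on the same strand. GOLGA8A, one of a family of near-identical golgin copies among which reads could be split, was at 39.5, 55.2 and 49.7 CPM against 101, 72.0 and 59.8 CPM.

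The 12 protein-coding genes that held at least the minimum in each pair with the largest smallest difference, on the higher side, are of several kinds. SLC2A11 (chromosome 22, 23856703 to 23886309), a fructose and glucose transporter, was at 7.73, 8.48 and 12.6 CPM flat and 10.7, 15.9 and 19.7 CPM concave. Each concave library exceeded the flat one of its number while the ranges overlapped. CAMTA2, a calmodulin-binding transcription activator, was at 9.40, 5.52 and 10.7 CPM flat and 12.1, 12.3 and 14.1 CPM concave, with no overlap. TTLL3, a tubulin glycylase of cilia, was at 14.5, 11.1 and 9.67 CPM against 19.4, 19.8 and 13.9 CPM, and overlaps the readthrough ARPC4-TTLL3. ADM, the hypoxia-responsive vasodilator adrenomedullin, had the most uneven levels, 0.429, 1.73 and 11 CPM flat and 15.3, 2.33 and 15.6 CPM concave.

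Among the other genes of the 12, HTR1A, a serotonin receptor, was at 1.60, 2.63 and 5.67 CPM flat and 2.60, 7.93 and 9.61 CPM concave. GNB3, a G protein beta subunit, was at 15.1, 15.7 and 21.2 CPM against 19.9, 26.3 and 27.4 CPM. ABCC8, the sulfonylurea receptor of ATP-sensitive potassium channels, was at 7.90, 5.83 and 6.08 CPM against 11.1, 9.29 and 7.79 CPM. In each of these 3 genes the ranges of the groups overlapped, and the concave library was the higher within each number. The adaptor DOK3, the zinc finger gene ZNF333, the nuclease subunit EME2 and the protocadherin PCDH10 had fitted log2 fold changes of 0.61, 0.56, 0.55 and 0.78. DOK3 was 0.30 without concave 3 and 1.09 without flat 3, and ZNF333 was 0.28 without concave 1. EME2 lies opposite SPSB3 and was -0.12 without concave 3, and PCDH10 was -0.01 without flat 2 and concave 1.

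Non-coding genes of the same choice on the higher side were THBS3-AS1, MIRLET7IHG, PAXBP1-AS1 and the pseudogene TCEA1P2. THBS3-AS1, which is antisense to THBS3 and spans the microRNA gene MIR92B, was at 5.43, 5.68 and 5.34 CPM flat and 7.21, 9.43 and 7.45 CPM concave. The flat libraries had an SD of 0.178 CPM and the groups did not overlap; the fitted log2 fold change was 0.55 ± 0.20. MIRLET7IHG, host of a let-7 microRNA, was at 6.99, 12.3 and 7.91 CPM against 9.89, 20.2 and 11.1 CPM. PAXBP1-AS1 and TCEA1P2 had fitted log2 fold changes of 0.91 and 0.62, and of 0.58 and 0.43 without flat 2. Whether the counting used strand is not given in the sources used here, so antisense genes may hold reads of their partners.

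On the lower side, CORO1A, H2AC25 and MATK were the protein-coding genes of the 12 whose groups did not overlap. CORO1A (chromosome 16, 30182827 to 30189076) encodes coronin 1A, an actin-binding protein best known in blood cells. It was at 15.5, 16.7 and 9.25 CPM flat and 8.75, 9.22 and 6.56 CPM concave, a fitted log2 fold change of -0.75 ± 0.28. H2AC25, a histone H2A gene, was at 10.5, 11.7 and 9.72 CPM against 7.71, 7.45 and 7.23 CPM, which is -0.51 ± 0.19. MATK, a kinase that restrains SRC family kinases, was at 8.52, 6.59 and 6.58 CPM against 6.47, 3.42 and 4.31 CPM. In CORO1A and MATK the lowest flat library was only just above the highest concave one.

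Other genes of the lower 12 had a wider spread. TSPO, a cholesterol-binding protein of the outer mitochondrial membrane, was at 8.71, 10.9 and 2.95 CPM flat and 5.93, 2.81 and 1.78 CPM concave. PADI3, an enzyme that converts arginine to citrulline in proteins, was at 14.1, 7.96 and 3.46 CPM against 8.09, 3.77 and 1.72 CPM. In both genes number 3 was lowest in each group, and its flat library was below at least 1 concave library. TMEM256 and CCDC167, both small membrane proteins, were led by flat 2, at 25.3 and 27.9 CPM, and their fitted log2 fold changes of -1.12 and -0.84 were -0.48 and -0.27 without it. CLIC6, MFNG, RINL and TNFAIP8L1 had fitted log2 fold changes of -0.48, -0.66, -0.46 and -0.51. With 1 library left out they ranged from -0.86 to -0.21, -1.30 to -0.25, -0.69 to -0.30 and -0.91 to -0.25, in the same order. MFNG encodes a Fringe glycosyltransferase that modifies Notch receptors.

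Among non-coding genes on the lower side, SNHG19 hosts small nucleolar RNAs. It was at 10.7, 25.3 and 8.26 CPM flat and 8.13, 7.59 and 5.78 CPM concave, and its fitted log2 fold change of -1.04 was -0.39 without flat 2. GIHCG was -0.91, and -0.22 without flat 2, and PCMTD1-DT was -0.45, and -0.27 without flat 2. The pseudogenes RPL7AP62, RPL7AP6 and RPL24P8, copies of ribosomal protein genes whose reads may come from the parent gene, were -0.89, -0.83 and -1.0, and -0.53, -0.47 and -0.53 without flat 2. RPL7AP6, RPL24P8 and SNCG had the smallest unadjusted p on the lower side among genes with a symbol that averaged at least 5 CPM. SNCG, gamma-synuclein, was at 40.8, 63.7 and 28.5 CPM flat and 25.7, 18.4 and 28.3 CPM concave. Its pair 3 difference was -0.01, so the difference lay in numbers 1 and 2.

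**Figure D3:**
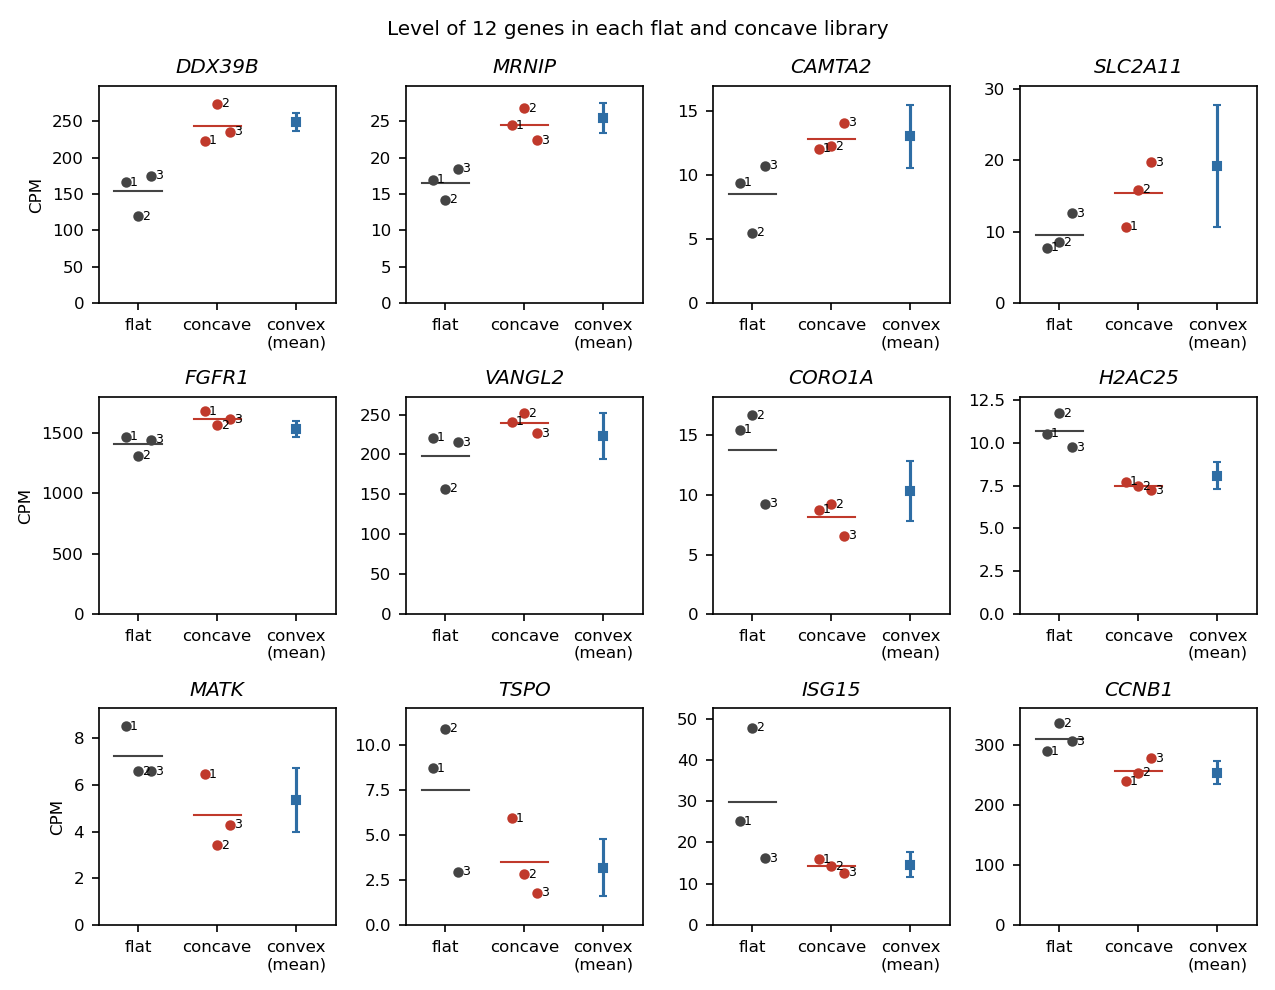
Level in CPM (vertical axis, from 0) of 12 genes in the flat (grey) and concave (red) libraries, labelled by replicate number with a line at the mean, and the convex mean with its SD over 3 libraries (blue). Concave libraries lie above all flat libraries in DDX39B, MRNIP, CAMTA2, FGFR1 and VANGL2 and below them in CORO1A, H2AC25, MATK, ISG15 and CCNB1, while the ranges overlap in SLC2A11 and TSPO.

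Groups of genes were read from 45 lists, by the median difference in each pair and by how many members kept 1 direction, set beside the 11.3% higher and 12.5% lower of all genes. Of all genes, 51.6% had a fitted log2 fold change above 0 and 48.4% below. No member of any list passed the test. The medians of the 3 pairs had 1 sign in 8 lists, higher in YAP and TEAD targets and in splicing factors and lower in early neuroectoderm factors, heat shock genes, p53 targets, interferon and MHC class I genes, replication-dependent histones and the fibroblast, endothelial and blood markers. The other 37 lists had mixed signs, most often lower in pairs 1 and 2 and higher in pair 3 (12 lists). Over all tested genes the pair medians were -0.01, 0.03 and -0.003. The pair 3 medians of p53 targets, heat shock genes and interferon genes, -0.004, -0.005 and -0.009, were close to that. After correction for transcript length, only splicing factors and interferon and MHC class I genes of the 8 lists kept 1 sign. In YAP and TEAD targets pair 1 then stood at -0.09.

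**Figure D4:**
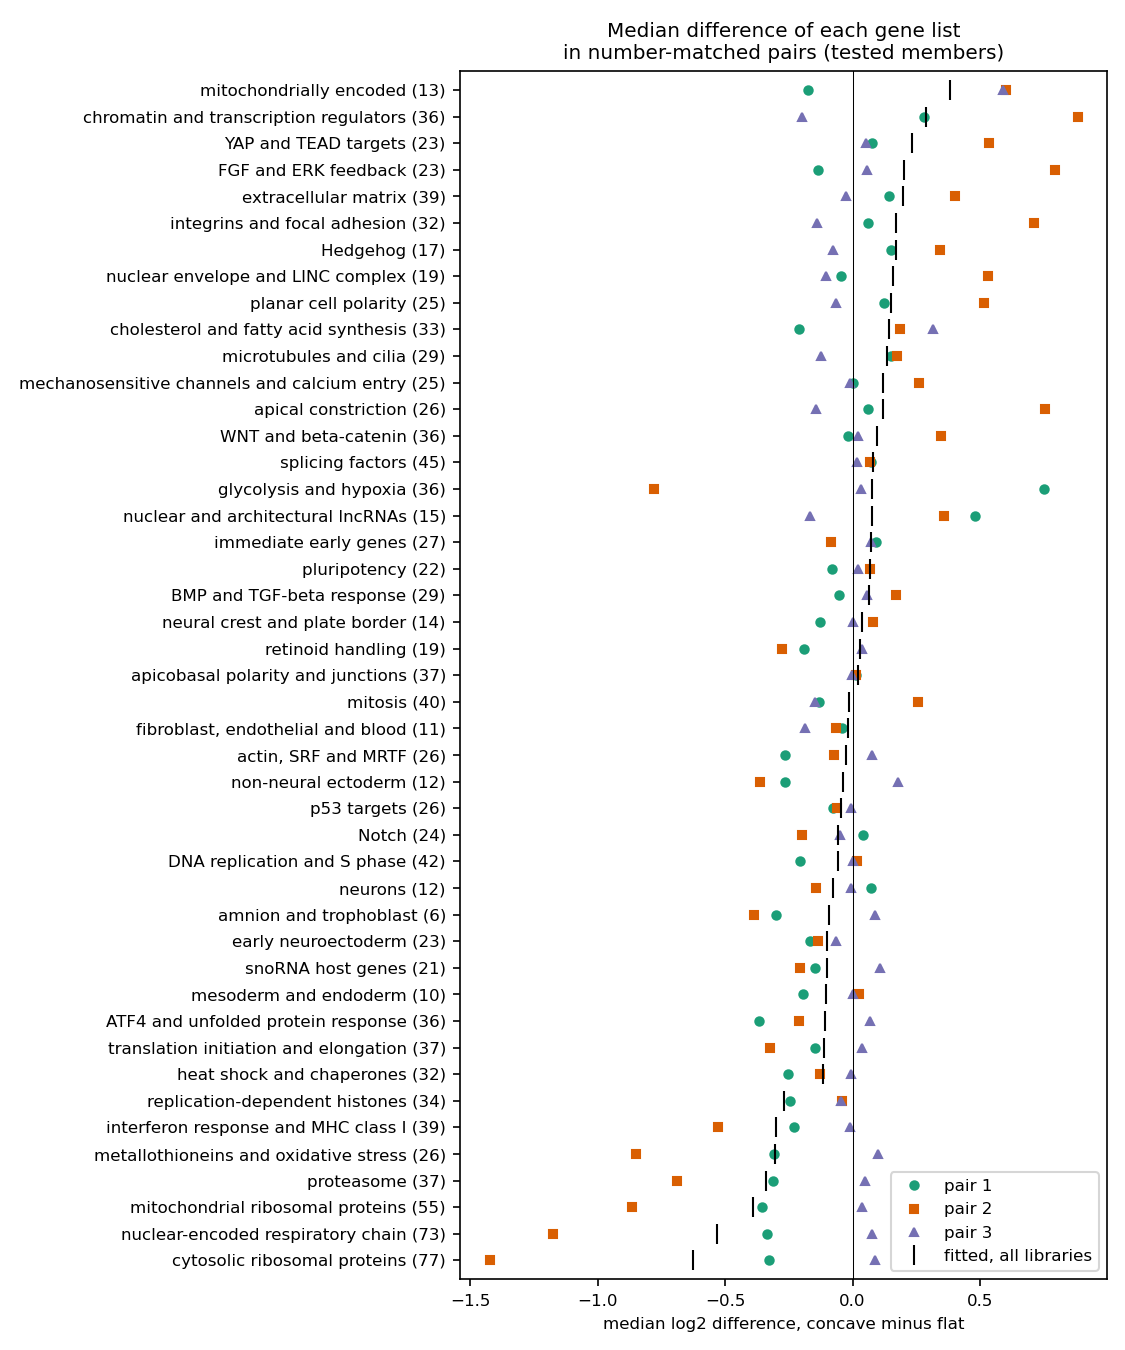
Median log2 difference, concave minus flat, of the tested members of each gene list (vertical axis, number tested in brackets) in pair 1 (circles), pair 2 (squares) and pair 3 (triangles), with the median fitted log2 fold change as a bar. In cytosolic ribosomal proteins the pairs stand at -0.33, -1.42 and 0.09; pair 3 lies within 0.2 of 0 in all lists but mitochondrially encoded genes and cholesterol and fatty acid synthesis.

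Neural identity genes did not separate the concave from the flat plate. Of 23 tested early neuroectoderm factors, 1 was higher and 3 lower in all 3 pairs, and the list's median fitted log2 fold change was -0.10, which became 0.04 without flat 2 and 0.06 without flat 2 and concave 1. FEZF1, LHX5 and HESX1, homeobox or zinc finger factors of the forebrain, were the 3 lower: FEZF1 was at 273, 312 and 187 CPM flat and 237, 258 and 177 CPM concave. LHX5 and HESX1 changed sign without flat 2, to 0.01 and 0.09. PAX6 was the 1 higher, at 1.68, 4.48 and 1.10 CPM flat and 2.86, 6.44 and 1.30 CPM concave, all low levels. SOX2 stood at 822, 741 and 578 CPM flat and 739, 748 and 512 CPM concave, and OTX2 at 289, 284 and 294 CPM against 257, 289 and 318 CPM; both overlapped.

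In pluripotency and adhesion genes number 3 stood apart in both groups. POU5F1, the core pluripotency factor OCT4, was at 366, 325 and 512 CPM flat and 244, 206 and 495 CPM concave. It was lower in all 3 pairs, by -0.58, -0.66 and -0.05, and highest in number 3 of each group. The 22 tested pluripotency genes had 2 higher and 2 lower in all 3 pairs, one of the lower being LCK, at a fitted -0.50 that was -0.24 without flat 1. CDH1 (E-cadherin) was at 319.6, 154 and 601 CPM against 323, 199.97 and 626 CPM, and CDH2 (N-cadherin), which replaces it as neural tissue forms, at 135, 170.4 and 118 CPM against 184, 222 and 102 CPM. Number 3 had the most CDH1 and the least CDH2 of each group, and neither cadherin separated the plates.

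YAP and TEAD targets, which respond to stretch and stiffness in many epithelia, had 19 of 23 tested members with a fitted value above 0, and a median of 0.23. In all 3 pairs 4 were higher (17.4%) and 1 lower. AMOTL2, a junctional protein that binds and restrains YAP, was at 12.1, 12.4 and 27.6 CPM flat and 20.1, 19.1 and 34.6 CPM concave, higher in each pair by 0.73, 0.63 and 0.33, yet with overlapping groups. The list median was 0.01 without flat 2, 0.05 without concave 3, 0.49 without flat 3, 0.23 without concave 1 and 0.07 without flat 2 and concave 1.

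Apical constriction, planar cell polarity and actin genes held members of both directions. Of 26 apical constriction genes, 1 was higher and 1 lower in all 3 pairs, with pair medians of 0.06, 0.76 and -0.14. SHROOM3, which recruits myosin-activating kinase to the apical surface, was at 79.5, 37.0 and 101 CPM flat and 72.6, 64.7 and 90.4 CPM concave; its fitted log2 fold change was 0.07, and -0.24 without flat 2. Of 25 planar cell polarity genes 5 were higher (20%) and 4 lower (16%) in all 3 pairs. VANGL2, a core membrane protein of that pathway, was at 221, 157 and 216 CPM against 241, 252 and 227 CPM, with no overlap and a fitted log2 fold change of 0.28 ± 0.17. It was 0.14 without flat 2 and 0.14 after correction for transcript length. The 26 genes of actin and its regulators SRF and MRTF had pair medians of -0.26, -0.07 and 0.07, with 1 higher and 4 lower in all 3 pairs.

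Polarity and force-sensing genes held members of both directions. Among 37 apicobasal polarity and junction genes, 4 were higher and 3 lower in all 3 pairs. Of the higher, CRB2 (apical Crumbs complex) was at 93.7, 63.7 and 80.4 CPM flat against 115, 101 and 88.9 CPM concave. NECTIN1 (adherens junctions) was at 191, 159 and 249 CPM against 196, 239.6 and 308 CPM. Their fitted log2 fold changes of 0.36 and 0.31 were 0.21 and 0.14 after correction for transcript length. Of 25 mechanosensitive channel and calcium entry genes 5 were higher and 4 lower. PIEZO1, a stretch-gated cation channel, was at 77.5, 51.9 and 90.5 CPM against 85.4, 75.9 and 99.5 CPM, higher in each pair. Its fitted log2 fold change of 0.25 was 0.06 without flat 2 and 0.04 after correction for transcript length. TRPV4, another stretch- and osmosensitive channel, went the other way, at 8.90, 6.10 and 4.33 CPM against 5.93, 5.66 and 3.29 CPM. Neither channel's groups were apart.

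Matrix genes had 32 of 39 fitted values above 0 and a median of 0.20, which was 0.04 without flat 2 and 0.02 without both libraries. In all 3 pairs 4 were higher (10.3%) and 0 lower. TNC (tenascin C) was at 21.8, 25.3 and 36.5 CPM flat and 32.2, 55.3 and 37.5 CPM concave. LAMA5, a laminin chain of the basement membrane, was at 334, 218 and 427 CPM against 403, 325 and 454 CPM. The fitted log2 fold change of LAMA5, 0.27, was 0.06 without flat 2 and 0.02 after correction for transcript length. Integrin and focal adhesion genes had 4 of 32 higher and 1 lower in all 3 pairs, with a median of 0.17 that was 0.01 without flat 2. Both medians were thus near 0 without flat 2. After correction for transcript length, the median of the members' mean pair difference was 0.01 in both lists.

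FGFR1, an FGF receptor that acts in neural induction, lies on chromosome 8, 38400215 to 38468834. It was at 1467, 1309.8 and 1439.6 CPM flat and 1675, 1562 and 1612 CPM concave. All concave libraries were above all flat ones, by 0.19, 0.25 and 0.16 in the pairs, and the fitted log2 fold change was 0.20 ± 0.14 with an adjusted p of 0.841 in edgeR's test. After a correction for transcript length it was 0.03. The FGF and ERK feedback list had 3 of 23 members higher (13%) and 1 lower in all 3 pairs, and its median of 0.20 ranged from -0.01 without concave 3 to 0.61 without flat 3.

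Hedgehog genes had 4 of 17 higher (23.5%) and 0 lower in all 3 pairs, with a median of 0.17 that was 0.10 without flat 2. WNT genes had 6 of 36 higher (16.7%) and 4 lower. TCF7L2, a transcription factor at the end of the WNT pathway, was at 79.6, 67.9 and 83.7 CPM flat and 85.3, 86.4 and 92.6 CPM concave, with no overlap. Notch genes had 0 of 24 higher and 3 lower, among them the target HES1, at 31.0, 45.3 and 25.5 CPM against 27.9, 29.1 and 24.9 CPM. The fitted log2 fold change of HES1, -0.31, was -0.04 without flat 2. BMP and TGF-beta response genes, whose receptors were blocked in every dish, had 1 of 29 higher and 0 lower.

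Retinoid handling genes had 1 of 19 higher and 5 lower (26.3%) in all 3 pairs. CYP26A1, which degrades retinoic acid, was at 129, 76.9 and 107 CPM flat and 81.8, 67.8 and 88.6 CPM concave. RARA, a retinoic acid receptor, was at 25.3, 25.4 and 18.7 CPM against 19, 19.5 and 16.7 CPM, and CRABP1, which carries retinoic acid in the cytoplasm, at 297, 585 and 189.8 CPM against 236, 165 and 162 CPM. CRABP1 without flat 2 was -0.37, against -0.93 with it. The pair medians of the list, -0.19, -0.28 and 0.04, had mixed signs, and after correction for transcript length 3 of 19 were lower in all 3 pairs (15.8%, against 13.8% of all genes).

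Of 27 immediate early genes, 4 were higher (14.8%) and 2 lower (7.41%) in all 3 pairs. EGR1, a zinc finger factor induced within minutes of many stimuli, was at 12, 7.83 and 7.66 CPM flat and 14.1, 13.6 and 9.86 CPM concave. FOSL2, an AP-1 subunit, was at 4.31, 3.24 and 5.08 CPM against 12.8, 3.80 and 6.67 CPM. The fitted log2 fold change of FOSL2, 0.88, was 0.31 without concave 1 and 0.16 without flat 2 and concave 1. IER5 was lower with no overlap, at 24.0, 20.3 and 17.4 CPM against 16.1, 15.8 and 15.2 CPM. The p53 targets had 2 of 26 higher and 2 lower; BBC3, the pro-apoptotic protein PUMA, was at 32.1, 44.7 and 26.0 CPM against 22.1, 19.4 and 25.4 CPM.

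Splicing factors had pair medians of 0.07, 0.07 and 0.02 and a fitted median of 0.08, with 6 of 45 higher (13.3%) and 4 lower in all 3 pairs; the fitted median was -0.07 without concave 3. RBM5, a regulator of exon choice, was at 121, 138 and 105 CPM flat and 162, 151 and 125 CPM concave, and CLK2, a kinase of SR splicing proteins, at 99.8, 114 and 106 CPM against 108, 125 and 125 CPM. After correction for transcript length 10 of 45 were higher in all 3 pairs (22.2%, against 11.9% of all genes). Of 15 nuclear and architectural long non-coding RNAs, 2 were higher in all 3 pairs, among them FTX, at 37.4, 36.6 and 60.2 CPM against 50.6, 78.8 and 64.4 CPM. MIR17HG, host of the miR-17-92 cluster, was at 14.2, 23.9 and 30.8 CPM against 21, 41.6 and 38.1 CPM.

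Cytosolic ribosomal protein genes had the lowest fitted median of the 45 lists. All 77 cytosolic ribosomal protein genes had a fitted value below 0, with a median of -0.63, but their pair medians were -0.33, -1.42 and 0.09. In all 3 pairs 16 were lower (20.8%) and 0 higher. At an unadjusted p under 0.05 in edgeR's test 50 were lower, beside 2.56% of all tested genes. That count depends on flat 2: without it, only 50 of all 23755 genes then tested were lower at that threshold. The list median was -0.21 without flat 2 and -0.23 without flat 2 and concave 1. RPS28, a small subunit protein, was at 226, 465 and 164 CPM flat and 163, 140.4 and 146 CPM concave. Flat 2 was far above the rest, while flat 3 and concave 1 were nearly equal. Of 37 translation initiation and elongation factors, 8 were lower (21.6%) and 2 higher in all 3 pairs, with a fitted median of -0.11. EEF1A1, the elongation factor that brings aminoacyl-tRNA to the ribosome, was at 6584, 7728 and 6569 CPM against 5935, 4907 and 6141 CPM, with no overlap. EIF4A1, an RNA helicase of translation initiation, was higher with no overlap, at 4.96, 2.13 and 8.10 CPM against 8.51, 11.8 and 10.3 CPM; it overlaps the readthrough SENP3-EIF4A1 on the same strand, so its reads could be split, and its fitted log2 fold change of 1.01 was 0.65 without flat 2.

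Mitochondrial and proteasome genes encoded in the nucleus had the same shape. Mitochondrial ribosomal proteins had 18 of 55 lower (32.7%) and 1 higher in all 3 pairs, and pair medians of -0.36, -0.87 and 0.04. MRPL13 was at 55.0, 94.1 and 65.2 CPM flat and 47.1, 50.5 and 56.8 CPM concave. Respiratory chain subunits had 17 of 73 lower (23.3%) and 1 higher, and pair medians of -0.34, -1.18 and 0.08; SDHC, a membrane anchor of complex II, was at 50.8, 64.2 and 54.5 CPM against 46.2, 40.8 and 44.2 CPM, with no overlap. Proteasome subunits had 10 of 37 lower (27%) and 2 higher, among the lower PSMA7 at 210.0, 333 and 226 CPM against 172, 166 and 199 CPM. The 3 list medians, -0.39, -0.53 and -0.34, were -0.17, -0.19 and -0.16 without flat 2, and -0.05, -0.17 and -0.05 without flat 2 and concave 1.

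The 13 listed genes of the mitochondrial genome all had fitted values above 0, with a median of 0.38 and pair medians of -0.18, 0.60 and 0.59. MT-ND5, a complex I subunit, was at 2142, 1007 and 3224 CPM flat and 2354, 3491 and 4496 CPM concave. The share of all counts was also taken over every gene placed on the mitochondrial chromosome, not only the 13 listed. It was 7.304%, 5.701% and 7.631% in the flat libraries and 6.568%, 7.773% and 10.55% in the concave ones. The list median was 0.17 without flat 2 and 0.02 without concave 3.

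**Figure D5:**
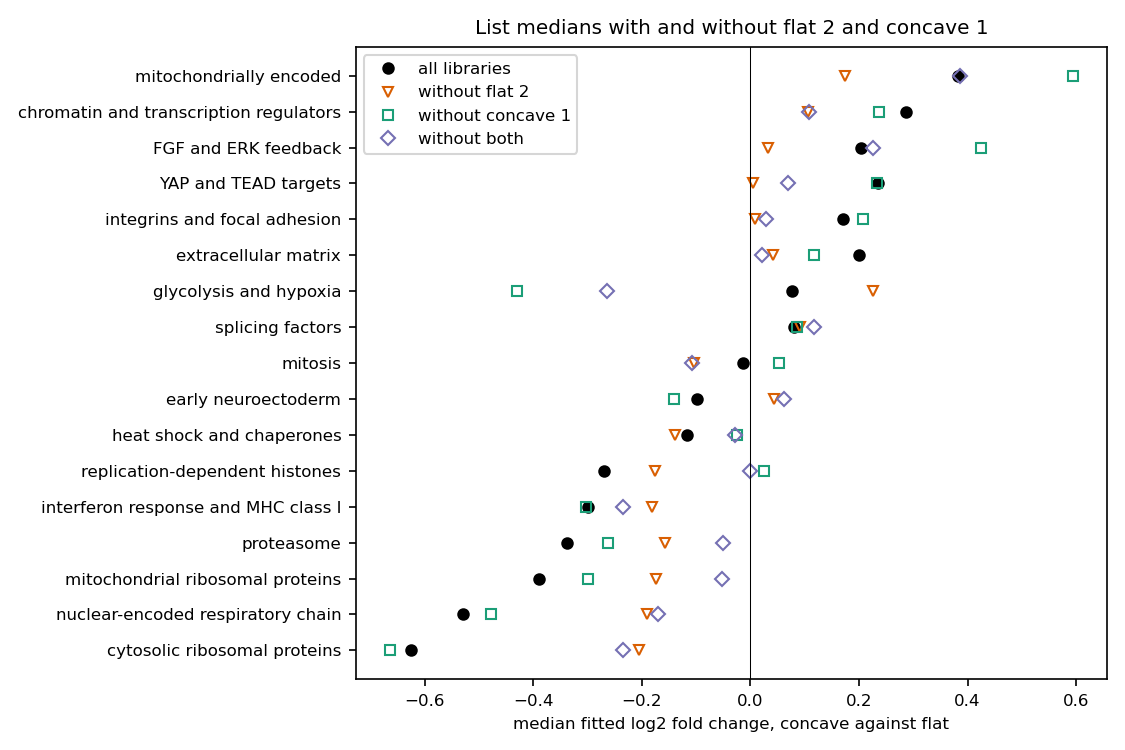
Median fitted log2 fold change, concave against flat (horizontal axis), of the tested members of 17 gene lists (vertical axis) with all libraries, without flat 2, without concave 1 and without both. Without flat 2 the median of cytosolic ribosomal proteins moves from -0.63 to -0.21, and without concave 1 that of glycolysis and hypoxia moves from 0.08 to -0.43.

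Glycolysis and hypoxia response genes went in opposite directions in pairs 1 and 2. Their pair medians were 0.75, -0.78 and 0.03, 1 of 36 was higher and 1 lower in all 3 pairs, and the fitted median of 0.08 was -0.43 without concave 1 and -0.11 without flat 3. PGK1, LDHA, BNIP3 and VEGFA were chosen after their values were seen. PGK1, a glycolytic kinase, was at 451, 716 and 365 CPM flat and 1003, 297 and 346 CPM concave. LDHA, which makes lactate, was at 293, 763 and 224 CPM against 852, 164 and 236 CPM, and BNIP3, a mitophagy receptor, at 90.5, 188 and 46.3 CPM against 265, 29.5 and 45.2 CPM. In these 3 genes concave 1 and flat 2 were high together, on different plates, and the other 4 libraries were lower. VEGFA, an angiogenic factor, was high in concave 1 alone, at 91.8, 52.4 and 75.9 CPM against 170.0, 59.4 and 74.4 CPM. TPI1, which was lower in all 3 pairs, had differences of -0.02, -1.32 and -0.08.

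Interferon response and MHC class I genes had 12 of 39 lower (30.8%) and 1 higher in all 3 pairs, with pair medians of -0.23, -0.53 and -0.01. The fitted median was -0.30, and -0.18 without flat 2, -0.30 without concave 1 and -0.23 without both. In this pathway secreted interferons switch on antiviral genes, many of which carry the interferon-stimulated response element in their promoters. ISG15, a ubiquitin-like modifier (chromosome 1, 1001138 to 1014540), was at 25.2, 47.8 and 16.2 CPM flat and 15.9, 14.3 and 12.7 CPM concave. All flat libraries were above all concave ones, flat 3 by a small margin, and the fitted log2 fold change was -1.05 ± 0.35 with an adjusted p of 0.841 in edgeR's test and -0.53 without flat 2.

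PSMB8, an immunoproteasome subunit, was at 6.96, 8.32 and 6.35 CPM flat and 4.38, 3.44 and 5.45 CPM concave, again with no overlap. TAP1, which pumps peptides to MHC class I, was at 8.91, 7.94 and 7.37 CPM against 7.55, 6.52 and 6.23 CPM, an overlap of 1 library on each side. IFIT1, which binds foreign RNA, was at 8.11, 11.6 and 3.51 CPM against 6.95, 8.11 and 2.84 CPM and had a fitted value of -0.37, which became 0.05 without flat 2. PSMB8 and TAP1 lie beside each other and share an antisense gene, PSMB8-AS1.

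The promoters of ISG15 and IFIT1 are shown because both genes were lower in all 3 pairs and both carry the element. Sequences are from RefSeq on GRCh38.p14, from 250 bases before to 50 bases after the start, on the gene's own strand; capitals mark matches to GAAANNGAAA on either strand. The windows are chr1:1013247-1013546 and chr10:89392373-89392672, both on the plus strand.
ISG15: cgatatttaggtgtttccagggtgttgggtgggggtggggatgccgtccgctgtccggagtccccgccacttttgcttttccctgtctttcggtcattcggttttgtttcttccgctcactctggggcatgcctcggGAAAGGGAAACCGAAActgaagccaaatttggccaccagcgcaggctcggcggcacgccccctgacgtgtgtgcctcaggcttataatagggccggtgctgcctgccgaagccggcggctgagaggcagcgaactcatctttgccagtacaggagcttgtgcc
IFIT1: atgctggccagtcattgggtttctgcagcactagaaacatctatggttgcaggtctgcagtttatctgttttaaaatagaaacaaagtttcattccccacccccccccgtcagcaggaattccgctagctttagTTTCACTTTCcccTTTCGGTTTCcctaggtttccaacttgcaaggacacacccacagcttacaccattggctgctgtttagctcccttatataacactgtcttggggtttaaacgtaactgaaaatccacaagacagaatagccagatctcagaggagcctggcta
Each window held 2 matches, which overlap in ISG15 and lie next to each other on the opposite strand in IFIT1. Of 35116 promoters of the same length and source, 1255 (3.57%) held at least 1 match. A match is a description of the letters, and no binding was measured.

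Stress and cell cycle lists had members that kept a direction with small differences. Heat shock and chaperone genes had 8 of 32 lower (25%) and 0 higher in all 3 pairs, with pair medians of -0.25, -0.13 and -0.01; DNAJB1, a co-chaperone of HSP70, was at 104, 96.2 and 119 CPM flat and 75.9, 72.9 and 106 CPM concave. Metallothionein and oxidative stress genes had 5 of 26 lower and 2 higher; PRDX1, a peroxidase, was at 482, 579.7 and 475 CPM against 366, 336 and 451 CPM, with no overlap. The fitted medians of these lists, -0.12 and -0.30, were -0.03 and -0.07 without flat 2 and concave 1.

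Mitosis genes had 10 of 40 lower (25%) and 0 higher in all 3 pairs, although the list's fitted median was -0.01 and lay between -0.10 and 0.10 with 1 library left out. CCNB1, the cyclin of mitotic entry, was at 289, 336 and 306 CPM flat and 239, 253 and 278 CPM concave, and MAD2L1, a spindle checkpoint protein, at 113, 122 and 126 CPM against 101, 105 and 107 CPM. Both were without overlap, with fitted log2 fold changes of -0.27 ± 0.14 and -0.21 ± 0.13. CENPA, the centromere histone, and BUB3, another checkpoint protein, had -0.36 and -0.22 with overlapping groups. DNA replication genes had 2 of 42 higher and 5 lower.

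Replication-dependent histones and the linker histones listed with them had 9 of 34 lower (26.5%) and 2 higher in all 3 pairs, and a fitted median of -0.27 that was 0.03 without concave 1 and -0.08 without flat 3. Many of these transcripts end without a poly(A) tail, and the libraries were poly(A)-selected, so their counts are of the polyadenylated fraction. H1-2 was at 28.0, 35.3 and 36.2 CPM flat and 21.5, 18.9 and 32.0 CPM concave. Chromatin and transcription regulators had 34 of 36 fitted values above 0 and a median of 0.29, which was 0.11 without flat 2, but pair medians were 0.28, 0.88 and -0.20, and 2 of 36 (5.56%) were higher in all 3 pairs. One was KMT2B, a histone H3 lysine methyltransferase, at 108, 56.2 and 112 CPM against 113, 135 and 124 CPM. Its fitted log2 fold change of 0.43 was 0.17 without flat 2.

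Lipid synthesis genes had 4 of 33 higher (12.1%) and 0 lower in all 3 pairs. SCD, which desaturates fatty acids, was at 1888, 1317 and 2331 CPM flat and 2178, 1880.1 and 2656 CPM concave. Of 29 microtubule and cilium genes 4 were higher and 3 lower, among the lower TUBA1C, an alpha-tubulin, at 237, 185 and 211 CPM against 176, 156 and 189 CPM.

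Transcript length moved with the differences, and differently in each pair. In the shortest of 5 equal groups of genes the median differences were 0.01, -0.23 and 0.09 in pairs 1, 2 and 3, and in the longest group 0.16, 0.56 and -0.14. Ribosomal and respiratory chain transcripts are short, and those of chromatin regulators and matrix proteins long. After each library was corrected for length, 40 of 77 cytosolic ribosomal protein genes were lower in all 3 pairs (51.9%, against 13.8% of all genes). So were 31 of 73 respiratory chain genes (42.5%), 23 of 55 mitochondrial ribosomal protein genes (41.8%) and 15 of 39 interferon and MHC class I genes (38.5%). Heat shock genes then had 6 of 32 lower (18.8%), mitosis genes 9 of 40 (22.5%) and histones 8 of 33 (24.2%), each less than before, while the chromatin regulators' pair medians became 0.05, 0.28 and -0.03. The pair 3 median of the cytosolic ribosomal proteins then stood at -0.01, against -0.28 and -1.08 in pairs 1 and 2. The part of transcript length in the differences that remained was not tested.

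The convex libraries give a second curvature against the same flat libraries, so the comparisons of both curvatures with flat share their controls. Concave and convex libraries were compared directly in the same model, and 0 genes (0%) were called, with a smallest adjusted p of 0.9999 in edgeR's test and 65 genes at an unadjusted p under 0.05. DDX39B stood at 249 ± 12.2 CPM under convex bending (SD, n = 3), a log2 difference of -0.03 ± 0.17 (SE) between concave and convex. CORO1A was at 10.3 ± 2.53 CPM, -0.33 ± 0.28, ISG15 at 14.7 ± 3.04 CPM, -0.03 ± 0.34, and FGFR1 at 1529.9 ± 66.9 CPM, 0.08 ± 0.14. LDHA, which was high in concave 1, was at 189.8 ± 19.97 CPM in the convex libraries. A p that misses the threshold does not show that the 2 curvatures act alike.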

How the data were processed

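RNA-seq was measured in 9 libraries of H9 cells, 3 each on flat, concave and convex plates, made with a stranded, poly(A)-selecting kit per the labels' protocols. The authors deposited 1 table of read counts per gene. Per the submitters' processing notes, HISAT2, featureCounts and GRCh38 were used; no version, annotation release or strand setting is given in the sources used here. Groups and replicate numbers came from the labels and were matched to columns by name.

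Counts were fitted in edgeR 4.0.16 (R 4.3.3): quasi-likelihood test, TMM scaling, filterByExpr, group as the only term, all 9 libraries, adjusted p under 0.05 over all tested genes. SE is the fold change divided by the square root of the F statistic. CPM uses TMM library sizes; number-matched differences use log2 CPM with a prior count of 2. A non-overlap of 3 against 3 libraries could reach no lower than p = 0.1 in an exact two-sided permutation test. Names come from the gene name table (62639 of 62710 genes), and positions, types and lengths from GENCODE v29 (58274). Lengths were known for 21940 tested genes. The length correction was a lowess per library (span 0.3), fitted to deviations from each gene's mean over all 9 libraries. Pair differences were taken afterwards. The fit was tested on simulated counts.

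Named genes are those at 5 CPM or more with a gene symbol and 1 sign in the 3 pairs: 12 protein-coding and 4 others per direction by the smallest of the 3 differences, up to 4 per list, the smallest p-values per direction, and 7 fixed genes. One gene that the rule names is not reported here. The comparison, the gene lists and this rule were chosen with earlier results of these data known, so no list is independent evidence. Alternatives were other scalings, filters and tools (limma 3.58.1 voom, DESeq2 1.42.0), each library left out, the 6 libraries alone, a replicate block and the length correction.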

Additional observations from a re-analysis of the deposited data

How the results depend on the processing

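No setting called a gene. Of the 6 counts reported, values outside 1.5 times were as follows. With a flat or concave library dropped fewer pairs are left, so the pair counts are not comparable with those of 3 pairs. They also depend on which pair is lost: 4658 genes were higher in the pairs left without concave 1 and 8320 without concave 3. At an unadjusted p under 0.05 there were 1047 genes, 1670 with a 1-count filter, 667 with a 1 CPM filter, 365 in the 6 libraries alone, 439 without flat 2 and concave 1, and 205 to 4096 with 1 library left out, convex libraries included. With a 1-count filter, 1313 genes were higher and 702 lower by at least 0.3 in all 3 pairs. With 1 CPM in 3 libraries, 1689 were higher in all 3 pairs, and 202 higher and 107 lower by at least 0.3. With a mean of 5 CPM, 923 and 1601 were higher and lower, and 34 and 31 by at least 0.3. Without flat 2 and concave 1, pair 3 alone gave 11696 higher and 11764 lower, and 4611 and 4790 by at least 0.3. With 1 library left out, the pairs left gave 4658 to 8342 higher and 4431 to 8111 lower, and, by at least 0.3, 1387 to 4073 higher and 753 to 3404 lower.

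Fitted directions of named genes were kept in 1097 refits and reversed in 19, in 10 genes. With 1 library left out, the fitted log2 fold change ran from -0.085 to 0.063 in OTX2, -0.206 to 1.355 in PAX6, -0.119 to 1.258 in EME2, -0.238 to 0.056 in SOX2, -0.450 to 0.687 in CDH1, -0.243 to 0.378 in SHROOM3, -0.555 to 0.013 in LHX5, -0.451 to 0.089 in HESX1, -0.732 to 0.048 in IFIT1 and 0.277 to 1.152 in PCDH10. Without flat 2 and concave 1 it was -0.012 in PCDH10, 0.145 in HESX1, 0.062 in OTX2, -0.154 in CDH1 and -0.215 in SHROOM3. It was 0.039 in OTX2 scaled by library size and -0.113 in SHROOM3 with the length correction; the cause was not tested.

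The replicate numbers matched flat and concave libraries in numbers 1 and 3 but not in number 2. Deviations from the group means correlated at 0.379, 0.0211 and 0.338 for numbers 1, 2 and 3, under the minimum of 0.1 in number 2 only. Flat 1 and flat 3 correlated best with the concave library of their own number, and flat 2 with concave 1 (0.15). With the number as a block, 2046 genes had an unadjusted p under 0.05 in 9 libraries and 364 in 6, with 0 called in both. Each library held at least 49420082 counts, and each group had 3 libraries.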
